A study of Mus musculus with 6 samples.

Results

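The expression of 10 marker genes of liver sinusoidal endothelial cells was followed in cultures of mouse primary hepatocytes. The genes were *Cdh5*, *Stab1*, *Stab2*, *Lyve1*, *Clec4g*, *Kdr*, *Pecam1*, *Fcgr2b*, *Eng* and *Tek*. They were chosen by name as endothelial markers, not by a threshold on these counts, though with earlier results of these data known. They are 10 of the 25184 genes in the count table. Hepatocytes came from 3 Sucnr1 fl/fl mice, which carry floxed alleles of *Sucnr1* and no Cre, and from 3 Hep-Sucnr1 KO mice, which carry the same floxed alleles together with Cre recombinase under the hepatocyte promoter *Alb*. The mice of both groups were fed chow, and the cells were isolated by enzymatic digestion and density gradient centrifugation and kept in culture overnight before RNA extraction. The promoter that drives Cre is not active in endothelial cells, so endothelial cells carried over into a Hep-Sucnr1 KO culture keep their *Sucnr1* alleles. Sucnr1 fl/fl replicate 1 and Hep-Sucnr1 KO replicate 3 were extracted on day 1, and Sucnr1 fl/fl replicates 2 and 3 and Hep-Sucnr1 KO replicates 4 and 5 on day 2. The libraries are called controls 1, 2 and 3 and knockouts 3, 4 and 5 after their genotype and replicate number. The age and sex of these 6 mice are not given in the sources used here.

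Sinusoidal endothelial cells line the liver capillaries. They are fenestrated, rest on little basement membrane, and clear modified proteins, hyaluronan and immune complexes from the blood through scavenger and lectin receptors. They share the junction and adhesion proteins of other endothelium and the receptors for vascular growth factors, which keep them alive and in their differentiated state. Hepatocytes do not use most of these receptors, so their mRNA in a hepatocyte culture is commonly read as a measure of endothelial cells that came through the isolation. *Stab1*, *Lyve1* and *Fcgr2b* are also expressed by some macrophages.

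The libraries held between 30504248 and 38770694 counts. The 15 hepatocyte genes listed as markers took between 8.59 and 11.7% of the counts of a library, led by *Alb*, and the 10 endothelial genes took between 0.00442 and 0.0116%, so the label of the cultures as hepatocytes held. All 10 genes had at least 19 counts in every library and passed the filter on low counts. Counts were scaled to library size with TMM factors and are given as CPM. In these bulk cultures fewer endothelial cells and less RNA per endothelial cell cannot be told apart. The day 1 libraries stood apart in the endothelial genes. Control 1 was the highest of the 6 libraries for 9 of the 10 genes, where it was the highest for 18.2% of all genes tested. The library labelled knockout 3 was the lowest for 6 of the 10, where it was the lowest for 16.3% of all genes tested. The results for the 10 genes, their correlations and the lists are therefore also given without these libraries.

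*Sucnr1*, the targeted gene, was read first as a check of the labels. It was at 6.71, 3.55 and 3.40 CPM in controls 1, 2 and 3 and at 2.66, 0.827 and 0.152 CPM in knockouts 3, 4 and 5. The library labelled knockout 3 had 84 counts, and its level (95% exact Poisson interval 2.12 to 3.29 CPM, for counting error only) overlapped the intervals of control 2 (2.94 to 4.25) and control 3 (2.77 to 4.12), while knockouts 4 and 5 lay below all controls. The library labelled knockout 3 did lie below the interval of control 1 (5.92 to 7.58), the only control of the same day. Against controls 2 and 3, which are of day 2, the loss of *Sucnr1* was thus not clear in the library labelled knockout 3, and its label is in doubt. This library also had the lowest sum of the 10 endothelial genes, and it is the only Hep-Sucnr1 KO library of day 1, so each genotype difference of day 1 rests on it. Gene counts cover the whole gene and not only the floxed exon.

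The sequence just upstream of the start site is shown for 4 of the genes, both stabilins and both vascular receptor kinases, because the stabilins are paralogs and *Stab2* and *Tek* were the genes nearest to and farthest from the pattern of the others over the 6 libraries. RefSeq promoters of GRCm38.p6 were at hand for 7 of the 10 genes, and not for *Cdh5*, *Lyve1* and *Pecam1*. Each run holds the 250 bases before the start, 5′ to 3′ on the strand of the gene. Capitals mark GGAAG on either strand. These letters hold GGAA, the core that many ETS factors bind, a family that endothelial genes commonly use. The windows are chr14:31168642-31168891 on the minus strand for *Stab1*, chr10:87007943-87008192 on the minus strand for *Stab2*, chr5:75978456-75978705 on the minus strand for *Kdr* and chr4:94739039-94739288 on the plus strand for *Tek*.
Stab1: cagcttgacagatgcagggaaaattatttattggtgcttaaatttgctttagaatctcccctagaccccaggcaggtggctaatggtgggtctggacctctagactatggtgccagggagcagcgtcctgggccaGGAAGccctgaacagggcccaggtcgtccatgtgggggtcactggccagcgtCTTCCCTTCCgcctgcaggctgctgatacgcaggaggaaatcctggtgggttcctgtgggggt
Stab2: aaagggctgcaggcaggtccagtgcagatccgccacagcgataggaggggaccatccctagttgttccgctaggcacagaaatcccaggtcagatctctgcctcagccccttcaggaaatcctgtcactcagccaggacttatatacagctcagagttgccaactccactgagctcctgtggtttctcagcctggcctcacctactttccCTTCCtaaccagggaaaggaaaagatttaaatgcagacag
Kdr: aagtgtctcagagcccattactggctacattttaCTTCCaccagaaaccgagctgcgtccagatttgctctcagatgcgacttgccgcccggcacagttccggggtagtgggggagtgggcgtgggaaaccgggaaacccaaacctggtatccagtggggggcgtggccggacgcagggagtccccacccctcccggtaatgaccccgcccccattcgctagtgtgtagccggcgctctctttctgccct
Tek: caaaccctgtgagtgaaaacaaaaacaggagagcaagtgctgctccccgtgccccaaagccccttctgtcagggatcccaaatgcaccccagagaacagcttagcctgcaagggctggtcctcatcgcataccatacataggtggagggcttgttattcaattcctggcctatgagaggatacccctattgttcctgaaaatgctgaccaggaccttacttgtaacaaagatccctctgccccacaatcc
The letters GGAAG or CTTCC stood in the windows of 6 of the 7 genes, and in 64.1% of the 32817 promoters of the same length. GGAAG and CTTCC were absent from the window of *Tek* alone, which does hold the shorter TTCC, the core GGAA on the other strand. The GATA letters AGATAA, which are longer than the core GATA, stood in 0 of 7 windows against 9.99% of all promoters. For the SOX letters ACAAAG it was 2 of 7, *Eng* and *Tek*, against 16.5%. In these 7 windows no GGAAG match overlapped another of these motifs, and a match describes letters, not a bound site.

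Levels were compared between genes per kilobase (kb) of exon. *Cdh5*, which encodes VE-cadherin of the endothelial junction, was the most abundant, with 6.44 ± 2.41 CPM per kb (SD, n = 6 libraries of both genotypes, as in this paragraph), and it was above the next gene in 6 of 6 libraries. *Pecam1* followed at 1.86 ± 0.638 CPM per kb, *Clec4g* at 1.49 ± 0.476 and *Eng* at 1.14 ± 0.466. *Stab1* was at 1.09 ± 0.413 and *Lyve1* at 1.02 ± 0.423 CPM per kb. These 5 genes did not separate in order beyond their spread: *Pecam1* was above *Clec4g* in 4 of 6 libraries, *Clec4g* above *Eng* in 5, *Eng* above *Stab1* in 3 and *Stab1* above *Lyve1* in 4. *Stab2* at 0.689 ± 0.227 CPM per kb was below *Lyve1* in 6 of 6 libraries, and *Fcgr2b* at 0.505 ± 0.128 was below *Stab2* in 6 of 6. *Kdr* at 0.230 ± 0.0951 and *Tek* at 0.188 ± 0.0716 CPM per kb closed the order, both below *Fcgr2b* in every library, and *Kdr* was above *Tek* in 4 of 6. The coefficient of variation of the CPM over the 6 libraries lay between 25.3% for *Fcgr2b* and 41.4% for *Kdr* and *Lyve1*. Counting alone would give between 3.62% for *Cdh5* and 19.6% for *Tek*.

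**Figure D1:**
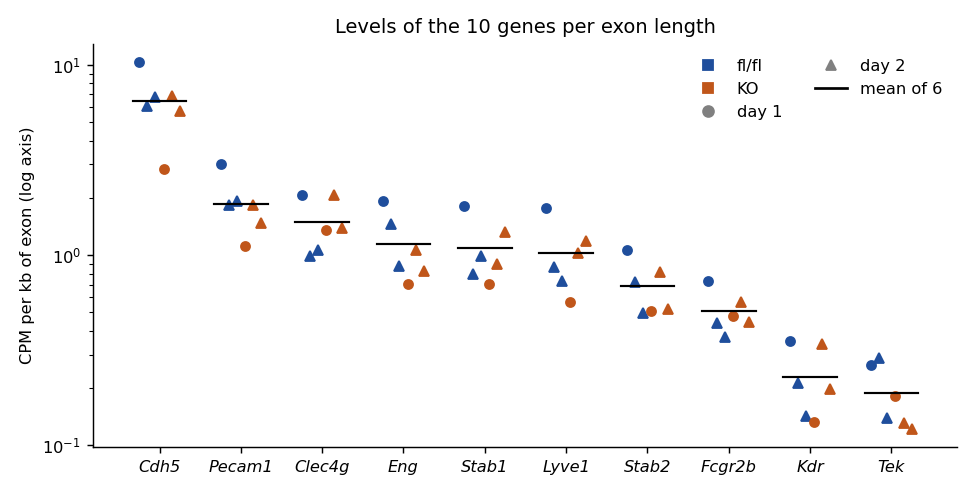
Level of each of the 10 genes in CPM per kb of exon on a log axis, 1 point per library (blue, Sucnr1 fl/fl; orange, Hep-Sucnr1 KO; circles, extraction day 1; triangles, day 2), with the mean of 6 libraries as a line. *Cdh5* lies above the other genes in every library, and *Kdr* and *Tek* have the lowest means.

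The junction gene *Cdh5* (ENSMUSG00000031871) lies on chromosome 8 of GRCm38 from 104101625 to 104144511 on the plus strand. It measured 43.4, 25.7 and 28.6 CPM in controls 1, 2 and 3 and 11.9, 28.7 and 24.1 CPM in knockouts 3, 4 and 5. The extremes were thus the 2 libraries of day 1, and the 4 libraries of day 2 lay between 24.1 and 28.7 CPM with the genotypes mixed. The means were 32.6 ± 9.49 CPM in controls and 21.6 ± 8.68 CPM in knockouts (SD, n = 3 each). In edgeR's quasi-likelihood model with extraction day as covariate, the log2 fold change of knockouts against controls was −0.63 (standard error 0.36, FDR 0.998), −0.05 without the library labelled knockout 3 and −0.04 without control 1. *Pecam1* (ENSMUSG00000020717, chromosome 11 from 106654217 to 106750628, minus strand), the adhesion molecule CD31 of endothelial borders, measured 18.8, 11.40 and 11.97 CPM in controls and 6.996, 11.37 and 9.14 CPM in knockouts. It was the only one of the 10 genes whose genotypes did not overlap, by a margin of 11.40 against 11.37 CPM, with all knockouts lower (two-sided exact permutation test, p = 0.1, the smallest that 3 against 3 allow). Over all genes tested, 4.04% were lower in every knockout. The log2 fold change of *Pecam1* was −0.59 (standard error 0.26, unadjusted p = 0.0597, FDR 0.998 from edgeR's test), −0.19 when control 1 was left out and −0.20 when the library labelled knockout 3 was. *Cdh5* and *Pecam1* were the most alike of all member pairs, with a Pearson r of 0.946 over the 6 libraries.

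The stabilins are large scavenger receptors that take up hyaluronan and modified lipoproteins. *Stab1* (ENSMUSG00000042286, chromosome 14 from 31139013 to 31168641, minus strand) measured 18.6, 8.18 and 10.1 CPM in controls 1, 2 and 3 and 7.25, 9.27 and 13.6 CPM in knockouts 3, 4 and 5. *Stab2* (ENSMUSG00000035459, chromosome 10 from 86841198 to 87008025, minus strand), the more sinusoidal of the paralogs, measured 9.34, 6.32 and 4.35 CPM and 4.46, 7.18 and 4.55 CPM in the same order. The genotypes overlapped for both, and their second highest libraries differed: knockout 5 for *Stab1* and knockout 4 for *Stab2*. The log2 fold changes were −0.23 (standard error 0.36) for *Stab1* and −0.26 (standard error 0.32) for *Stab2*, each with an FDR of 0.998. Both changed sign without a day 1 library. Without the library labelled knockout 3 they were 0.32 and 0.12, and without control 1 they were 0.32 and 0.14.

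*Lyve1* (ENSMUSG00000030787, chromosome 7 from 110850607 to 110863239, minus strand) encodes a hyaluronan receptor of sinusoidal and lymphatic endothelium. It measured 5.15, 2.53 and 2.14 CPM in controls and 1.65, 2.98 and 3.46 CPM in knockouts. *Clec4g*, the sinusoidal lectin LSECtin (ENSMUSG00000074491, chromosome 8 from 3707064 to 3720651, minus strand), measured 5.10, 2.44 and 2.61 CPM and 3.36, 5.08 and 3.40 CPM. *Fcgr2b*, the inhibitory Fc receptor with which sinusoidal cells remove immune complexes (ENSMUSG00000026656, chromosome 1 from 170958617 to 170976547, minus strand), measured 4.24, 2.56 and 2.14 CPM and 2.75, 3.28 and 2.58 CPM. In these 3 of the 10 genes each day 2 knockout was above each day 2 control, as in 15.0% of all genes tested, while on day 1 the order was the opposite. *Pecam1* and *Tek* had each day 2 knockout below each day 2 control, as in 14.1% of all genes tested. *Clec4g* was the only one of the 10 genes with a positive log2 fold change between genotypes, 0.29 (standard error 0.33, FDR 0.998), and −0.01 without knockout 4. The values were −0.22 (standard error 0.44) for *Lyve1* and −0.002 (standard error 0.28) for *Fcgr2b*, and without the library labelled knockout 3 they were 0.45 and 0.31. *Fcgr2b* is related in sequence to other Fc receptor genes, so a part of its counts is uncertain.

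Of the growth factor receptors, *Kdr* encodes VEGFR2, the main signalling receptor for VEGF (ENSMUSG00000062960, chromosome 5 from 75932827 to 75978458, minus strand). It measured 3.17, 1.93 and 1.29 CPM in controls and 1.203, 3.07 and 1.79 CPM in knockouts, so that the highest and the second highest library belonged to different genotypes and different days. *Eng*, the co-receptor endoglin for BMP and TGF-β ligands (ENSMUSG00000026814, chromosome 2 from 32646595 to 32682669, plus strand), measured 7.80, 5.87 and 3.53 CPM and 2.85, 4.31 and 3.34 CPM. Its locus holds *Mir1954* and 2 other annotated genes on the same strand, which the counting can split from it. *Tek*, the angiopoietin receptor TIE2 (ENSMUSG00000006386, chromosome 4 from 94739289 to 94874976, plus strand), was the least abundant, with 48, 45 and 20 counts in controls and 27, 21 and 19 counts in knockouts, or 1.25, 1.35 and 0.659 and 0.855, 0.620 and 0.577 CPM. *Tek* was the only gene whose highest library was not control 1. The log2 fold changes between genotypes were −0.05 (standard error 0.48) for *Kdr*, −0.68 (standard error 0.32) for *Eng* and −0.68 (standard error 0.36) for *Tek*, with an FDR of 0.998 each from edgeR's test. With 1 library left out, *Kdr* ranged from −0.49 to 0.595, *Eng* from −0.98 to −0.30 and *Tek* from −0.905 to −0.33.

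**Figure D2:**
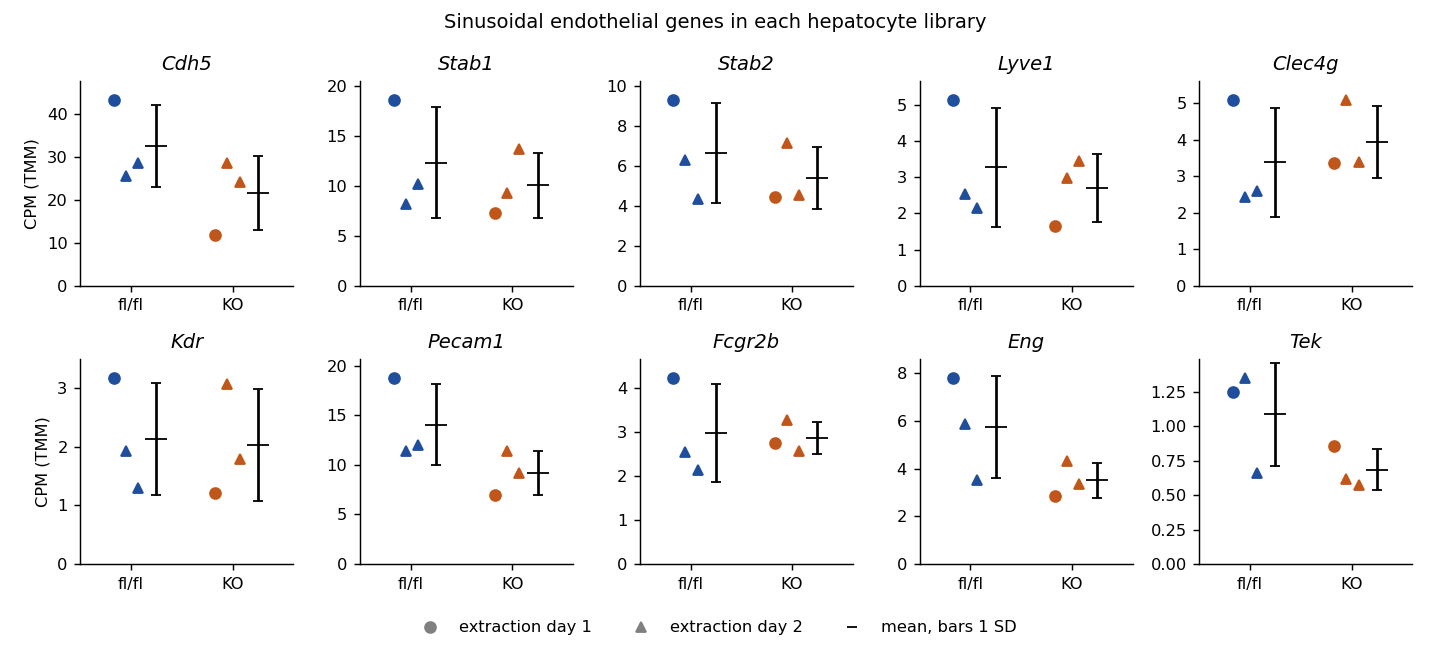
CPM of each gene in every library by genotype (circles, extraction day 1; triangles, extraction day 2), with the mean and 1 SD of 3 libraries per genotype. The day 1 circle of Sucnr1 fl/fl is the highest point in 9 of the 10 panels, and the genotypes overlap in all panels but that of *Pecam1*.

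Between the genotypes, 9 of the 10 genes had a negative and 1 a positive log2 fold change, with a median of −0.25, beside a median of 0.003 over the 15105 genes tested. None of the 10 passed an FDR of 0.05 in edgeR's quasi-likelihood test or in DESeq2's Wald test. At an unadjusted p below 0.05 it was 0 of 10 in edgeR and 1 of 10 in DESeq2, *Pecam1* (unadjusted p = 0.0391, adjusted p = 0.9998). Over all genes tested, edgeR called 0 (0.0%) and DESeq2 called 7 at an FDR of 0.05, and 563 genes (3.73%) had an unadjusted p below 0.05 in edgeR. With the day 1 libraries left out, *Stab1*, *Stab2*, *Lyve1*, *Kdr* and *Fcgr2b* turned positive, between 0.12 and 0.58. The median over the 10 genes was then 0.215, with 6 positive and 4 negative values, and it was 0.226 without control 1 alone.

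Between the extraction days, the log2 fold change of day 2 against day 1 was negative for 9 of the 10 genes, from −0.41 for *Fcgr2b* to −0.11 for *Kdr*, and 0.13 (standard error 0.38) for *Cdh5*. The median was −0.24, and 0 of the 10 genes passed an FDR of 0.05 or an unadjusted p of 0.05. Over all genes tested edgeR called 0 (0.0%) by FDR, with 1132 (7.49%) at an unadjusted p below 0.05, and DESeq2 called 220. The day comparison rested on which day 1 library was in the fit. Without control 1 the values of 9 of the 10 genes were positive, from 0.09 for *Fcgr2b* to 1.15 for *Cdh5*, and *Tek* stayed negative. Without the library labelled knockout 3 all 10 were negative, down to −1.17 for *Lyve1*.

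The question of whether the genotypes differed in the same way on both days was therefore asked directly. On day 1, where each genotype had 1 library and thus no replicate check, control 1 was above the library labelled knockout 3, whose label is in doubt, for all 10 genes, and by more than 2-fold for 7 of them, against 7.68% of all genes tested. *Cdh5* was 3.65-fold higher (95% interval 3.26 to 4.09, for counting error only), *Lyve1* 3.13-fold (2.295 to 4.33), *Eng* 2.74-fold (2.16 to 3.51), *Pecam1* 2.68-fold (2.31 to 3.135), *Kdr* 2.64-fold (1.82 to 3.90), *Stab1* 2.57-fold (2.21 to 2.99) and *Stab2* 2.09-fold (1.72 to 2.56). *Fcgr2b* at 1.54-fold (1.18 to 2.02) and *Clec4g* at 1.52-fold (1.19 to 1.94) differed less, and the interval of *Tek* at 1.46-fold included no difference (0.893 to 2.435). On day 2 the ratio of the knockout to the control mean was above 1 for 6 genes, with *Clec4g* at 1.68 and *Kdr* at 1.51 the highest, and below 1 for *Cdh5* (0.973), *Pecam1* (0.878), *Eng* (0.815) and *Tek* (0.595).

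The interaction of genotype and extraction day was positive for 9 of the 10 genes, with a median log2 value of 1.295, beside 0.004 over all genes tested. An unadjusted p below 0.05 in edgeR's test was reached by 6 of the 10 genes, against 3.69% of all genes tested (557 genes). These 6 were *Cdh5* at 1.83 (standard error 0.28, unadjusted p = 0.000628), *Lyve1* at 2.11 (standard error 0.46, unadjusted p = 0.00373), *Stab1* at 1.68 (unadjusted p = 0.00746), *Pecam1* at 1.24 (unadjusted p = 0.00813), *Kdr* at 1.99 (unadjusted p = 0.0281) and *Clec4g* at 1.35 (unadjusted p = 0.0335), with an adjusted p of 0.9997 each. None passed after Benjamini-Hochberg adjustment over all genes, where edgeR called 0 genes (0.0%). DESeq2's Wald test called 4 genes, among them *Cdh5* with an adjusted p of 0.0452 and a log2 value of 1.86, and over the other settings its adjusted p reached 0.9999. The 10 genes share their libraries, so these are not 10 independent observations, and the day 1 side is the contrast of control 1 with the library labelled knockout 3, whose *Sucnr1* level did not clearly differ from that of controls 2 and 3. Day 1 had 1 library per genotype, so all residual spread in this fit came from the day 2 libraries. The standard errors and p-values of the interaction thus do not cover the spread between cultures on day 1. Only day 2 libraries could be left out, as the interaction cannot be fitted without either day 1 library. The same day 1 contrast thus stood in each of these fits. With each day 2 library left out in turn, the sign of 9 genes was kept. *Tek* was the exception, from −0.63 to 0.41.

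**Figure D3:**
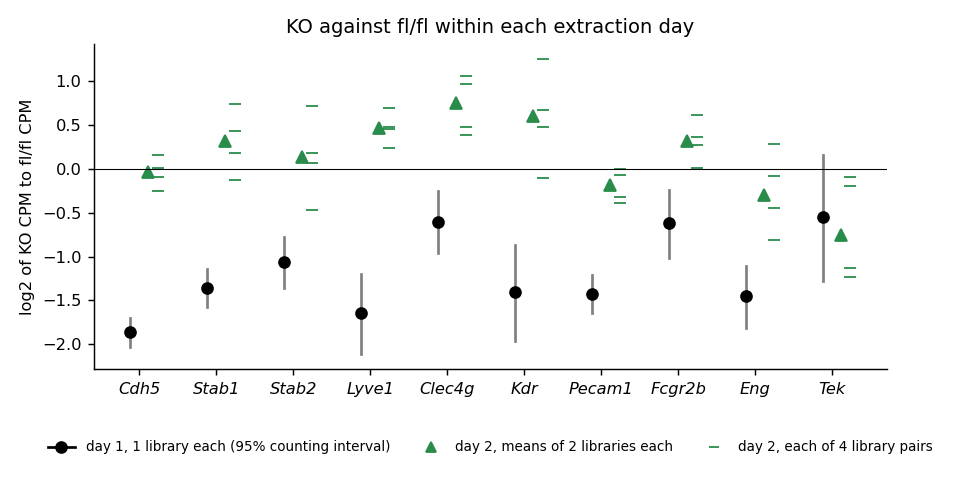
Log2 ratio of Hep-Sucnr1 KO to Sucnr1 fl/fl CPM for each gene within extraction day 1 (black circle, 1 library each, with the 95% counting interval) and within day 2 (green triangle, means of 2 libraries each; dashes, the 4 pairs of libraries). All 10 day 1 ratios lie below 0, and 6 of the 10 day 2 ratios lie above 0.

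Over the 6 libraries, 44 of the 45 pairs of genes had a positive Pearson r of log2 CPM, with a median of 0.702, and 4 pairs were above 0.9. Correlated with the mean of the other 9 genes, *Stab2* was closest with an r of 0.926, followed by *Lyve1* at 0.88, *Eng* at 0.874 and *Kdr* at 0.871. *Tek* was the least alike at 0.359, and *Clec4g* the next at 0.591. These values are descriptions over 6 libraries, of which control 1 was high for nearly all genes. Without control 1 the median r of the pairs was 0.363 with 32 of 45 positive, and *Kdr* was closest to the others at 0.936. Without the library labelled knockout 3 the median was 0.685 with 44 of 45 positive, and *Fcgr2b* was closest at 0.954. Over the 4 day 2 libraries it was 0.161 with 26 of 45 positive, with *Kdr* closest to the others at 0.946 and *Stab1* the least alike at −0.641.

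**Figure D4:**
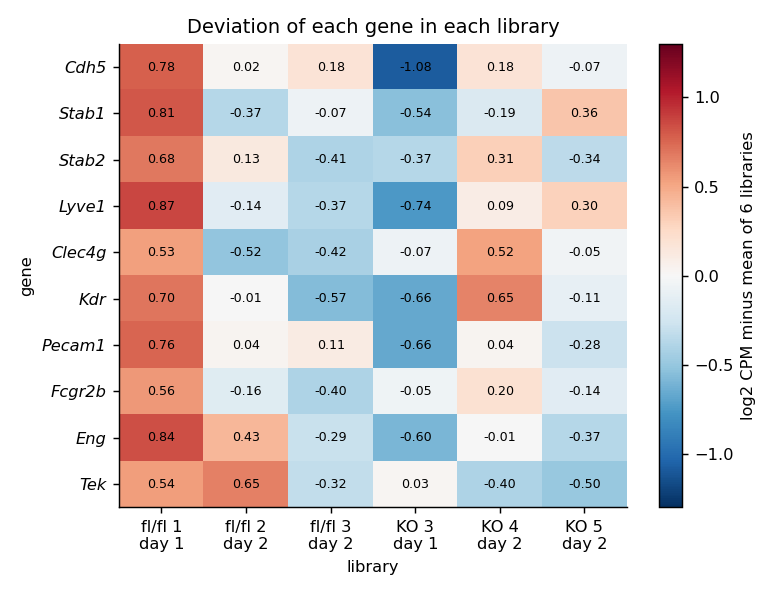
Deviation of log2 CPM (prior count 2) of each gene in each library from its mean over the 6 libraries, printed in each cell. Sucnr1 fl/fl replicate 1 is above the mean for all 10 genes, from 0.53 to 0.87, and Hep-Sucnr1 KO replicate 3 is below it for 9 genes, with *Cdh5* at −1.08.

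The proportions among the 10 genes were not the same in every library. *Cdh5* made up 37.1% of the counts of the 10 genes in control 1 (95% Wilson interval 35.7 to 38.6), 37.6% in control 2 and 42.4% in control 3, and 37.8% and 36.2% in knockouts 4 and 5. In the library labelled knockout 3 it was 27.5% (25.2 to 29.9), below the interval of each other library. *Clec4g* made up between 3.57 and 4.36% of these counts in the controls and 7.75, 6.695 and 5.11% in knockouts 3, 4 and 5. Its share was thus higher in each knockout, though the intervals of knockout 5 (4.26 to 6.11) and control 1 (3.805 to 5.002) overlapped. The share of *Fcgr2b* was higher in each knockout too, at 3.63, 3.75 and 3.18% in controls and 6.36, 4.32 and 3.88% in knockouts. Shares within a library are not independent, so a low share of *Cdh5* raises those of the other genes. In CPM the genotypes overlapped for both *Clec4g* and *Fcgr2b*. A rate of such splits over all genes was not computed.

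Summed over the 10 genes, the level was 117, 68.3 and 67.4 CPM in controls 1, 2 and 3 and 43.3, 75.9 and 66.6 CPM in knockouts 3, 4 and 5. The 4 libraries of day 2 lay within 66.6 and 75.9 CPM, and the 2 libraries of day 1 lay outside this range on opposite sides, 2.7-fold apart. Without *Cdh5*, which carries the largest part of the sum, the day 1 libraries were 2.34-fold apart. The means were 84.2 ± 28.3 CPM in controls and 61.9 ± 16.8 CPM in knockouts (SD, n = 3 each), which differed by less than the SD of controls. On day 2 alone the ratio of knockouts to controls was 1.05.

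Markers of the other liver cells were read beside these sums. The 15 Kupffer cell genes summed to 136, 127 and 243 CPM in controls and 100.3, 190 and 177 CPM in knockouts, and none of the 15 was at 0 in a library. *Slc40a1*, the iron exporter, and *Cd68*, a lysosomal protein, carry much of this sum. Without these genes, a choice made after their values were seen, the other 13 genes summed to 45.6, 41.6 and 151 CPM and to 9.28, 132 and 94.5 CPM. *Clec4f*, a lectin of Kupffer cells, was at 7.91, 8.09 and 25.2 CPM in controls and 1.90, 24.8 and 15.7 CPM in knockouts, a wider range than that of any of the 10 endothelial genes, whose highest library was between 1.98 times (*Fcgr2b*) and 3.65 times (*Cdh5*) the lowest. The Kupffer cell genes were lowest in the library labelled knockout 3 for 13 of 15 genes, as were 6 of the 10 endothelial genes, but highest in control 1 for 0 of 15. The ratio of the 10 endothelial to the 13 Kupffer cell genes ran from 0.446 in control 3 to 4.67 in the library labelled knockout 3. The 14 stellate cell genes summed to 39.4, 17.2 and 11.3 CPM in controls and 13.9, 9.60 and 16.2 CPM in knockouts. All 9 stellate cell genes that passed the filter were highest in control 1, the library that was highest in the endothelial genes, and *Des*, *Col3a1*, *Gdf2* and *Acta2* were at 0 in at least 1 library. The part of cell carry-over in the endothelial values was not tested beyond these sums.

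**Figure D5:**
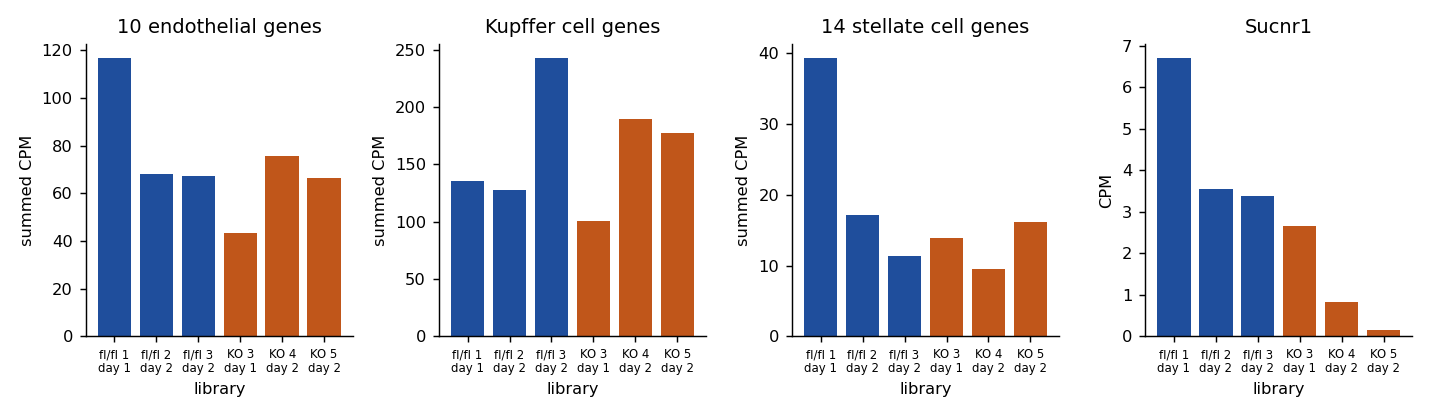
Summed CPM of the 10 endothelial, 15 Kupffer cell and 14 stellate cell genes and CPM of *Sucnr1* in each library (blue, Sucnr1 fl/fl; orange, Hep-Sucnr1 KO; extraction day under each bar). The endothelial sum is highest in Sucnr1 fl/fl replicate 1 at 117 CPM and lowest in Hep-Sucnr1 KO replicate 3 at 43.3 CPM, while the Kupffer cell sum is highest in Sucnr1 fl/fl replicate 3.

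Other endothelial genes were read from lists. Of 16 further sinusoidal markers 15 passed the filter, 2 with a positive and 13 with a negative log2 fold change between genotypes and a median of −0.28. *Plpp3*, a lipid phosphatase, led this list in CPM, and *Cd209b*, a lectin of sinusoidal and marginal zone cells, was at 0 in some libraries and at most 1 count in the others. Of 24 pan-endothelial genes 22 passed, 1 with a positive and 21 with a negative value and a median of −0.37, and *Rasip1*, a regulator of vessel lumens, was the most abundant. Of these 22 genes 17 were highest in control 1 and 10 were lowest in the library labelled knockout 3. Of 18 genes of large vessels and of capillarized endothelium 13 passed, 3 positive and 10 negative, with a median of −0.37, and *Col4a1*, a basement membrane collagen, led in CPM. *Cd34*, *Wnt9b*, *Ly6c1* and *Aplnr* of this list and *Clec14a* of the pan-endothelial list were at 0 in at least 1 library. None of these genes passed an FDR of 0.05 in edgeR's test. The one with an unadjusted p below 0.05 was *Thbd*, thrombomodulin, named after its value was seen, at −0.81 (unadjusted p = 0.0213, FDR 0.998 in edgeR's test). Of all genes tested, 3.73% had an unadjusted p below 0.05 in that test. The interaction of genotype and day had an unadjusted p below 0.05 in edgeR's test for 3 of the 15 sinusoidal genes. It did for 8 of the 22 pan-endothelial and 3 of the 13 large vessel genes, all positive. Of all genes tested, 3.69% had such a p for the interaction. The day 1 side of each was again control 1 against the library labelled knockout 3, without a replicate. The genotype medians rested on the day 1 libraries. Over the day 2 libraries alone they were −0.05 for the sinusoidal, 0.007 for the pan-endothelial and −0.16 for the large vessel list, with 11 of 21 pan-endothelial genes positive, and *Thbd* was at −0.44.

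The partners of the receptors were listed by pathway. *Vegfa*, the ligand of *Kdr*, was abundant at 595 ± 196 CPM in controls and 647.5 ± 112 CPM in knockouts (SD, n = 3 each), with a log2 fold change of 0.13. *Flt1*, the decoy receptor VEGFR1, was at 8.32, 3.85 and 2.97 CPM in controls and 3.10, 3.43 and 3.64 CPM in knockouts, and *Flt4*, VEGFR3, at 8.56, 3.76 and 2.90 and 1.93, 2.89 and 3.73 CPM. Both were highest in the same library as *Kdr*, and their genotypes overlapped. *Nrp1*, a VEGF co-receptor, was at 115 ± 21.6 and 111 ± 34.3 CPM and did not follow the endothelial genes, with 112, 138 and 94.7 CPM in controls.

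Of the angiopoietin system, *Angpt1*, the activating ligand of *Tek*, had at most 3 counts in a library, and *Svep1*, a ligand of the related receptor TIE1, at most 1. *Angpt2*, its context-dependent antagonist made by endothelium, was at 4.97, 3.46 and 3.13 CPM in controls and 2.44, 2.33 and 2.25 CPM in knockouts. All knockouts were lower, with a log2 fold change of −0.695 (standard error 0.20, unadjusted p = 0.0118, FDR 0.998 from edgeR's test), and −0.535 over the day 2 libraries alone. Over all genes tested, 4.04% were lower in every knockout and 3.73% had an unadjusted p below 0.05 in that test. *Tie1*, the receptor that pairs with TIE2, was nearly level at 5.25 ± 1.22 and 5.18 ± 1.02 CPM (SD, n = 3 each), unlike *Ptprb*, the phosphatase that restrains TIE2, at 7.28, 3.88 and 3.10 and 2.41, 3.37 and 3.01 CPM. In the whole list of 17 VEGF and TIE2 pathway genes, 15 passed the filter, 4 positive and 11 negative, with a median of −0.06 (0.007 over day 2 alone), and 0 passed an FDR of 0.05.

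*Eng* works with the receptors *Acvrl1* and *Bmpr2* for the ligand BMP9, encoded by *Gdf2*. *Acvrl1* was at 2.58, 2.02 and 5.64 CPM in controls and 0.633, 4.22 and 3.49 CPM in knockouts, highest where the Kupffer cell sum was highest and lowest where it was lowest. *Bmpr2* was at 30.9 ± 5.45 and 25.4 ± 2.79 CPM (SD, n = 3 each), and *Gdf2* had at most 7 counts in a library. The endothelial BMP ligands *Bmp2* and *Bmp6*, which set hepcidin in hepatocytes, were at 2.39, 1.41 and 0.890 CPM and 4.604, 2.26 and 3.03 CPM in controls, and at 0.981, 0.886 and 1.09 CPM and 1.49, 2.60 and 3.16 CPM in knockouts. Both were highest in control 1. Of the 19 genes of this pathway, led by *Id3*, 18 passed the filter, 1 positive and 17 negative, with a median of −0.27 (−0.09 over day 2 alone) and 0 past an FDR of 0.05. All 9 junction partners, led by *Cdh1*, the cadherin of hepatocytes, were negative, with a median of −0.19 (−0.12 over day 2 alone) and 0 past that threshold.

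The genes outside the 10 whose pattern was most like theirs were ranked by Pearson r with the mean standardised log2 CPM of the 10 genes over the 6 libraries. They were *Mink1* (r = 0.992), *Igfbp7* (0.991), *Timp3* (0.986), *Tmem245* (0.98), *Dapk1* (0.979), *Fam171a1* (0.978), *Prg4* (0.975), *E230013L22Rik* (0.973), *Sp3os* (0.971) and *Rnf215* (0.97). *Igfbp7*, a secreted protein of vessels, was at 10.9, 6.65 and 6.0 CPM in controls and 5.10, 7.09 and 6.13 CPM in knockouts, and *Timp3*, a matrix metalloprotease inhibitor, at 9.42, 4.78 and 3.79 and 3.07, 5.32 and 3.61 CPM. *Mink1*, a kinase, moved little, from 27.3 to 34.7 CPM, so a high r over 6 libraries does not require a large change. An r above 0.9 was reached by 83 of 15095 genes (0.55%), by 3 of the 15 further sinusoidal markers, by 4 of the 22 pan-endothelial genes, by 0 of the 15 Kupffer cell genes and by 0 of the 9 stellate cell genes. The median r was 0.754 over the pan-endothelial, 0.56 over the further sinusoidal, 0.577 over the stellate cell and 0.158 over the Kupffer cell genes, beside −0.03 over all genes. The number of genes above 0.9 was 199 (1.32%) without control 1 and 201 (1.33%) without the library labelled knockout 3. Of the 10 genes named, 7 were above 0.9 without control 1 and all 10 without the library labelled knockout 3. Over the 4 day 2 libraries alone only 5 of these 10 were, with the lowest at 0.706, and 661 genes (4.38%) were above 0.9.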

How the data were processed

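Stranded paired-end mRNA libraries of 6 hepatocyte cultures were sequenced. According to the methods and the submitters' processing notes, the authors trimmed reads with Trim Galore 0.6.7, aligned them to GRCm38 with STAR 2.7.10a and counted read pairs per Ensembl gene with featureCounts, using strand, and the deposited values are these raw counts, not normalized. The handling of pairs that match several genes is not given in the sources used here. Samples were grouped by the genotype label, and the extraction day was taken from its label.

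Here, 25096 of the 25184 gene identifiers received a symbol, and exon lengths and loci came from GENCODE M21 on GRCm38, a different release from the annotation of the counts. Genes with a mean DESeq2-normalized count above 5 were kept (15105 genes). Genotype and extraction day were tested with edgeR 4.0.16 (R 4.3.3; TMM, quasi-likelihood, Benjamini-Hochberg over all genes tested, threshold 0.05), and their interaction in an added term. DESeq2 1.42.0 was an alternative, with adjustment over the same genes. Standard errors are the log2 fold change divided by the root of the F statistic. Exact permutation tests were two-sided, and intervals of counts and shares are 95% and cover counting error only. Scripts were tested on simulated data. The alternatives were other scalings and filters, other terms, day 2 alone and each library left out. The named genes were the 10 genes, *Sucnr1*, 13 receptors, ligands and partners, the 10 genes of most similar pattern, and the leading or undetected genes of each list. *Thbd*, *Clec4f*, *Csf1r*, *Slc40a1* and *Cd68* were named after their values were seen. Members and lists were chosen with earlier results of these data known.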

Additional observations from a re-analysis of the deposited data

How the results depend on the processing

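No paired analysis was possible because the genotypes share only 1 replicate number in the labels. Extraction day stood in the model. The library indexes were split here by their number, with controls 1 and 2 at the lower numbers and the other 4 libraries at the higher. This split is partly confounded with genotype. The labels do not call it a batch, and the paper describes a single index set and a single pool for all the libraries. For all 10 genes, no alternative brought the genotype or the day effect past an FDR of 0.05. The number of genes called by genotype was 0 in each alternative but DESeq2, with 7, and the number called by day was 220 with DESeq2, 122 with no filter on low counts and 0 to 29 with 1 library left out (29 without control 2). For the interaction, whose alternatives were chosen after seeing the data, DESeq2 called 4 genes, 1 of them a member (*Cdh5*, 1.86). Of the libraries, only those of day 2 could be left out for the interaction. With the day 2 libraries alone the genotype log2 fold change reversed for *Stab1* (0.32), *Stab2* (0.12), *Lyve1* (0.45), *Kdr* (0.58) and *Fcgr2b* (0.31). When a term for the split of library indexes was added it reversed for *Stab2* (0.30), *Lyve1* (0.34), *Kdr* (0.70), *Fcgr2b* (0.34) and *Eng* (0.00188). The value of *Tek* was then −0.04. The day effect of *Cdh5* was −0.0493 with no genotype term. The cause of these reversals was not tested.

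With 1 library left out, the genotype log2 fold change ranged from −0.55 to 0.32 for *Stab1*, −0.585 to 0.14 for *Stab2*, −0.53 to 0.46 for *Lyve1*, −0.00989 to 0.75 for *Clec4g*, −0.49 to 0.595 for *Kdr* and −0.19 to 0.32 for *Fcgr2b*. The day effect ranged from −0.71 to 1.15 for *Cdh5*, −1.06 to 0.66 for *Stab1*, −0.84 to 0.39 for *Stab2*, −1.17 to 0.97 for *Lyve1*, −1.05 to 0.34 for *Clec4g*, −1.01 to 1.01 for *Kdr*, −0.72 to 0.55 for *Pecam1*, −0.885 to 0.0885 for *Fcgr2b* and −0.76 to 0.42 for *Eng*, and the interaction of *Tek* from −0.63 to 0.41. The summed level had a log2 ratio of day 2 to day 1 of −0.20, and of −0.75 without the library labelled knockout 3 to 0.68 without control 1. The number of genes with an r above 0.9 to the 10 genes, an alternative chosen after seeing the data, was 199 without control 1 and 201 without the library labelled knockout 3. It was 661 over the day 2 libraries alone. At 19 to 48 counts per library, *Tek* had the least depth.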

Other observations

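Cells of the blood and the Kupffer cells followed another order of libraries than the endothelial genes. For extraction day 2 against day 1, 13 of the 15 Kupffer cell genes were positive, with a median log2 fold change of 2.05, and 10 of the 15 had an unadjusted p below 0.05 in edgeR's test, among them *Clec4f* and *Csf1r*, both named after their values were seen, against 7.49% of all genes tested. None passed an FDR of 0.05. Of the leukocyte genes 6 of 6 that passed the filter were positive, with a median of 1.71, and 2 had an unadjusted p below 0.05 in edgeR's test. The 5 erythroid genes that passed were also all positive, with a median of 1.43, but 0 had such a p. The sum of the 6 erythroid genes listed overlapped between the days. It was 93.9 and 86.8 CPM in the day 1 libraries and from 73.6 to 115 CPM in those of day 2. *Ptprc*, the common leukocyte antigen, was at 1.93, 1.62 and 7.68 CPM in controls 1, 2 and 3 and 0.918, 8.42 and 5.65 CPM in knockouts 3, 4 and 5. The stellate cell genes went the other way, with 9 of 9 negative, a median of −0.71 and 4 at an unadjusted p below 0.05 in edgeR's test. This rested on control 1, where the 14 stellate cell genes summed to 39.4 CPM. In the library labelled knockout 3, also of day 1, the sum was 13.9 CPM, within the 9.60 to 17.2 CPM of the day 2 libraries. The cholangiocyte list, led by *Spp1*, was mixed, with 4 positive and 5 negative values. Of the markers of these cells, *Krt7*, *Cd3g*, *Ms4a1*, *Nkg7*, *Ly6g* and *Mpo* were at 0 in at least 1 library. Control 2, although of day 2, had Kupffer cell and leukocyte levels near those of the day 1 library of its genotype.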
